A study of Mus spretus with 19 samples.

Results

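The comparison set the livers of Algerian mice (Mus spretus) trapped at the phosphogypsum stacks (PS), heaps of calcium sulfate waste from fertilizer manufacture, against livers of mice from the middle stretch of the Domingo Rubio stream (DR4). The labels call both sites polluted. Its members are the 8 arrays of the 19 in the study whose titles name PS (4 arrays) or DR4 (4 arrays). At each site the liver RNA of 9 male wild mice was pooled into 1 sample, and each array is a separate Cy3 labelling of that pool. The other 11 arrays, used for the shared estimate of spread and for orientation, come from equal pools of an unpolluted lagoon (SOL, 4 arrays) and of the lower (DR1, 4 arrays) and upper (DR6, 3 arrays) stream, both labelled polluted.

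Because each site gave a single pool, its arrays repeat the labelling and hybridization only. Every test below therefore sets a difference between 2 pools against technical spread, and how much mice of 1 site vary is not measured. The 4 PS arrays shared 1 slide and scan and the 4 DR4 arrays another, so site and slide cannot be told apart. The labels used here give no age, body mass, feeding state or hour of death for the mice of either site. A pool also cannot separate fewer cells of a type from less RNA per cell.

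As background, the liver makes much of the body's cholesterol through the mevalonate pathway, whose genes are switched on together by the transcription factor SREBP-2 when cell sterols run low. In fasting, the fatty acid receptor PPARα turns on fat oxidation and ketone synthesis. Immediate early genes such as Fos and Nr4a1 respond within minutes to hormones, growth factors and stress. The circadian clock gives liver transcripts a daily rhythm, in which genes driven by BMAL1 (encoded by Arntl) peak at another phase than Arntl itself.

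Levels are given as the log2 of a probe's background-corrected signal minus the 75th percentile of its array, so 0 is that percentile and 1 unit is 2-fold. Differences are PS minus DR4 on the same scale. Arrays of the same site correlated over genes at r = 0.9946 to 0.9968 (PS) and 0.9934 to 0.9952 (DR4), and arrays of different sites at 0.9693 to 0.9722, as a description over genes that are not independent. Between 54.2% and 56.2% of spots were well above background on the PS arrays and between 55.9% and 61.5% on the DR4 arrays, with DR4 array 2 at the top. Of 20 hepatocyte markers, among them albumin (Alb1) and transferrin (Trf), all were above background at both sites and none was called, although 7 had a saturated signal at 1 or both sites. The arrays carry Mus musculus probes, and a Mus spretus base difference under a probe can lower its signal. Whether this varied between sites was not tested.

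Of 16343 genes and transcripts tested, 1464 (8.96%) were called, which needed an adjusted p under 0.05 (limma) and at least a 2-fold difference. For 259 of them no array of the lower site was well above background, and for 8 no array of either site. The other 1197 were measured at both sites. The calls were balanced: 706 (4.32%) were higher at PS and 758 (4.64%) lower. With a normexp background 520 were called, 69.6% of them higher at PS, and 356 of these 520 are among the 1464. With normexp and quantile scaling together 408 were called, 39.2% of them higher at PS, and 391 are among the 1464. Technical repeats are tight, so the arrays of the sites did not overlap at all for 60.2% of all genes, and 8691 genes passed the p threshold alone. The size of a difference, with a median over all genes of 0.05 and a median absolute value of 0.33, is therefore the more useful guide. Each gene list below is read against the 4.32% and 4.64%. With a normexp background 68 of the 162 called genes named below lost their call and 5 more turned in sign. Besides those given with their groups, the losses were Abcc4, Abcg8, Actn3, Agr2, Aldh1a2, Amacr, C2ta, Cd8a, Cdkn1a, Cftr, Chi3l4, Ckm, Col6a3, Cyp26a1, Cyp2c55, Cyp3a25, Fasn, Gcg, Ggt1, Gpx2, Gstt1, Gstt2, Hsf2, Krt4, Mlf1ip, Mup3, Oas1a, Orm3, Phlda3, Pklr, Ppargc1a, Pyy, Scd2, Sdsl, Serpinb3b, Sftpc, Slc10a2, Soat2, Socs3, Sult1e1, Sult5a1, Tff1, Ugt2b35 and Xlkd1.

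**Figure D1:**
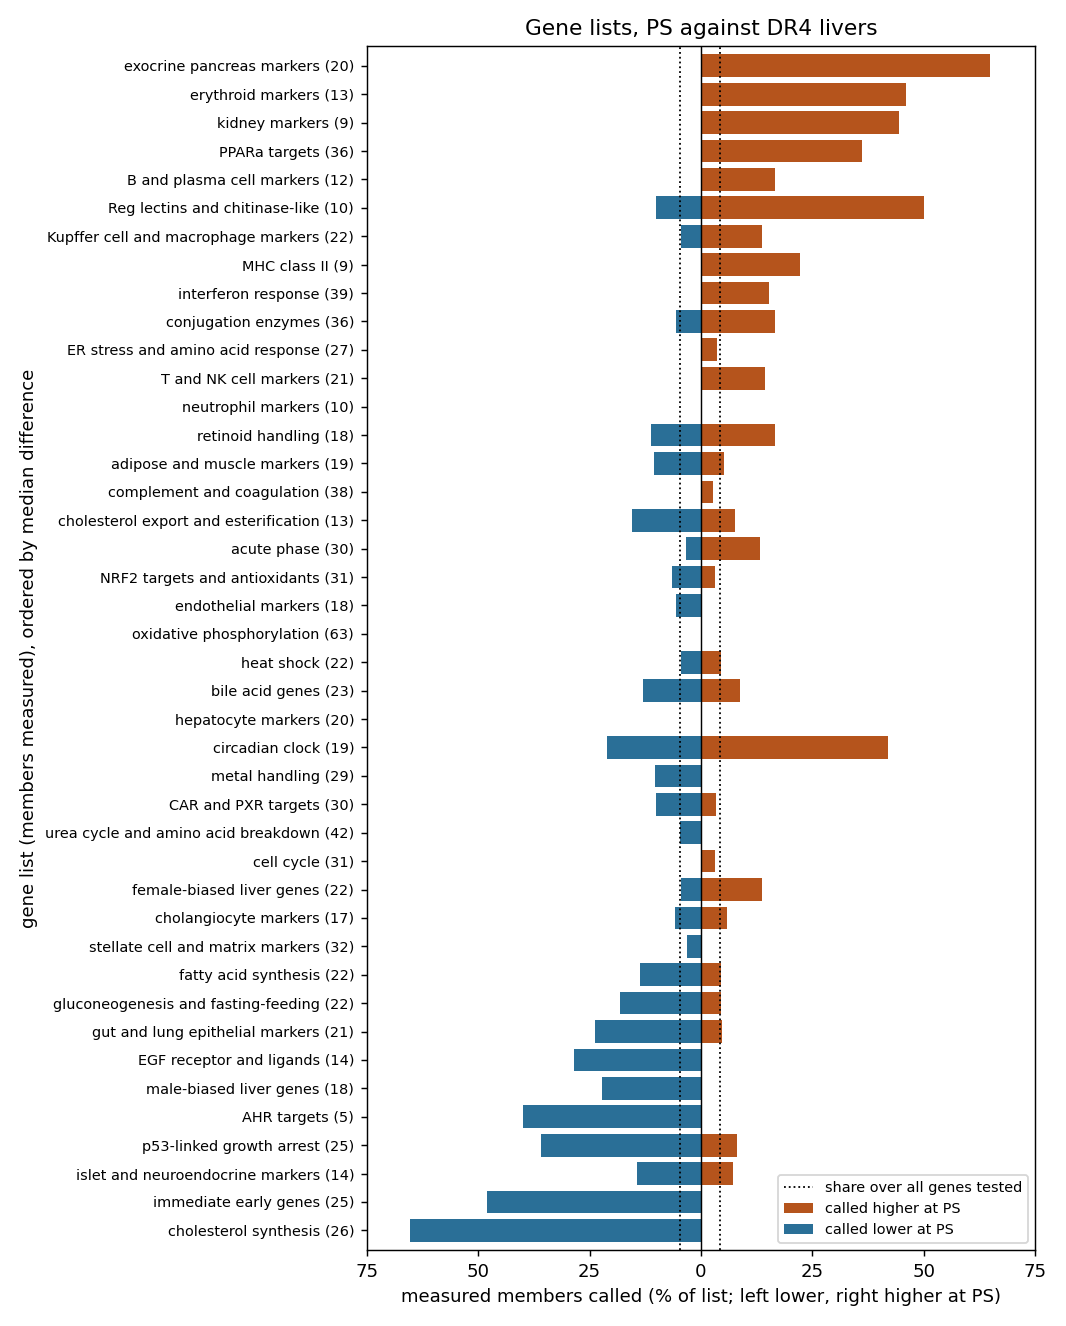
Bars give the percent of measured members called higher (right) or lower (left) at PS than at DR4 for each of 42 gene lists, ordered by median difference, with the number measured in brackets. Dotted lines mark the shares over all genes, 4.32% and 4.64%. Cholesterol synthesis has the most called lower (17 of 26) and exocrine pancreas markers the most called higher (13 of 20).

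Measured against the lagoon pool, the called genes divided unevenly. The DR4 pool was called against SOL and the PS pool was not for 765 of the 1464 (52.3%). The reverse held for 205 (14%) and neither was called for 374 (25.5%). Both were called for the rest, 96 in the same direction and 24 in opposite directions. DR4 had more calls against SOL over all genes, 10.5% of those tested, than PS with 4.42%. These comparisons share the SOL arrays, and the 3 differences of a gene are not independent, so their values are given side by side only.

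The mevalonate and sterol genes were mostly lower at PS. Of 26 members of the cholesterol synthesis list, 17 were called lower at PS and none higher, with a median difference of -1.74. Called enzymes were spread along the pathway: Hmgcs1 (HMG-CoA synthase, -2.25), Pmvk (phosphomevalonate kinase, -2.87), Idi1 (isopentenyl diphosphate isomerase, -2.92), Sqle (squalene epoxidase, -2.30), Lss (lanosterol synthase, -1.93), Cyp51 (lanosterol demethylase, -2.94) and Dhcr7 (the last step to cholesterol in one branch, -2.35). The median of the list against SOL was -1.89 at PS and -0.151 at DR4.

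Cyp51 read 1.83, 1.85, 1.83 and 1.57 on the 4 PS arrays and 4.78, 4.74, 4.73 and 4.57 on the 4 DR4 arrays. All PS arrays lie far below all DR4 arrays, and the SOL, DR1 and DR6 means of 4.37 (3 arrays), 4.48 and 4.14 (2 arrays) lie near DR4. The difference was -2.94 ± 0.09 (SE), 7.65-fold, with an adjusted p of 1.11e-12.

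The regulators around the pathway did not move as one. Insig1, which holds the SREBP proteins in the endoplasmic reticulum and is itself a sterol-responsive gene, was lower at PS by a difference of -1.64. The enzyme genes Ebp, at -0.95, and Mvd, at -0.92, missed the 2-fold limit. Srebf2, the gene of SREBP-2, differed by -0.07 ± 0.06 at its brightest probe (adjusted p = 0.304), while a dimmer probe gave -1.17. Acat2, an enzyme gene of the list, differed by 0.31 and was its 1 member above 0.

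The sequences identify the probes behind the calls, and the exon or UTR each one lies in was not looked up. The probes are 60 bases long. The first 30 bases of each are printed, 5′ to 3′, as the deposited design gives them, with mm8 positions. Cyp51 was read by probes at chr5:4089242-4089301 and chr5:4098039-4098445 (minus strand), of which the second spans 407 bases of genome and so crosses a splice junction, and they gave -2.94 and -2.93, with -3.86 at the third. Fdps (farnesyl diphosphate synthase) had discordant probes. Its bright probe at chr3:89180817-89180957 gave -2.41 and its dim probe at chr3:89185031-89185090 gave -0.12 ± 0.08 (adjusted p = 0.203), so the Fdps call rests on 1 of its 2 probes. Hmgcs1 had probes at -2.25 and -2.24 and the third, not called, at 0.26.
Cyp51, brightest probe: cgttgtgttggagaaaattttgcctatgtt
Cyp51, second probe: caaaagaaccagctgaggacattcttcaaa
Fdps, brightest probe (minus strand): agatacactgaaaagaggtacaaatcgatt
Fdps, second probe (minus strand): agggactgacaggtgggcacagagaatttt

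Fatty acid synthesis was mixed. Of 22 genes, 3 were called lower at PS, Lpin1 (-1.39), Fasn (fatty acid synthase, -1.20) and Scd2 (-1.07), and 1 higher, Pklr (liver pyruvate kinase, 1.84). One of the 4 Lpin1 probes, at -0.74, was not called. Srebf1 differed by -0.19 ± 0.08. Among 13 genes of cholesterol export and esterification, Apob (-1.74) and Abcg8 (the bile sterol transporter, -1.10) were called lower and Soat2 (the cholesterol-esterifying enzyme, 2.09) higher. The third Apob probe gave -0.34, against -1.74 and -1.78 for the others. With the array median as scale, Scd2 was below the 2-fold limit.

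PPARα targets went the other way. Of 36 members, 13 were called higher at PS and none lower, with a median of 0.84. The leading members were Fgf21 (a fasting hormone of the liver, 3.03), Acot2 and Acot3 (acyl-CoA thioesterases, 1.91 each), Vnn1 (pantetheinase, 1.89), Cidec (a lipid droplet protein, 1.54) and Acaa1b (peroxisomal thiolase, 1.53). Ppara itself was lower at PS, by a difference of -0.63 ± 0.04, which is under 2-fold, and the targets Pdk4 (-0.11), Cpt1a (-0.05) and Angptl4 (-0.17) hardly differed. The list's median against SOL was -0.33 at PS and -1.02 at DR4. The DR1 pool lay near DR4 for some members, as for Acot2 (DR1 3.33, DR4 3.03, DR6 5.26) and Cidec (DR1 4.96, DR4 4.65, DR6 6.50), and nearer to PS for others, as for Acot4 (DR1 2.93, PS 3.12, DR4 1.75).

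Fgf21 read 2.16, 2.20, 2.23 and 2.33 at PS and -0.63, -0.88, -0.88 and -0.81 at DR4. The sites do not overlap, and PS lies near the SOL mean of 2.40 while DR4 is the lowest of the 5 sites. The difference of 3.03 has an SE of 0.41 because the shared model also takes in the SOL and DR1 arrays, which scattered with an SD of 1.12 and 0.69 for this gene. A second Fgf21 probe gave 2.88 ± 0.07. Acot2 read 4.92, 4.92, 4.88 and 5.03 at PS and 3.11, 2.92, 3.05 and 3.02 at DR4, 3.77-fold apart (adjusted p = 2.01e-13). With the test set against 2-fold itself, 7 of the 13 targets were called, and 8 with normexp and quantile scaling.
Fgf21, brightest probe (chr7:45481977-45482036, minus strand): tttttgggtttccacttatttattacgggt
Fgf21, second probe (chr7:45482352-45482966, minus strand): tgggtgtcaaagcctctaggtttctttgcc

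**Figure D2:**
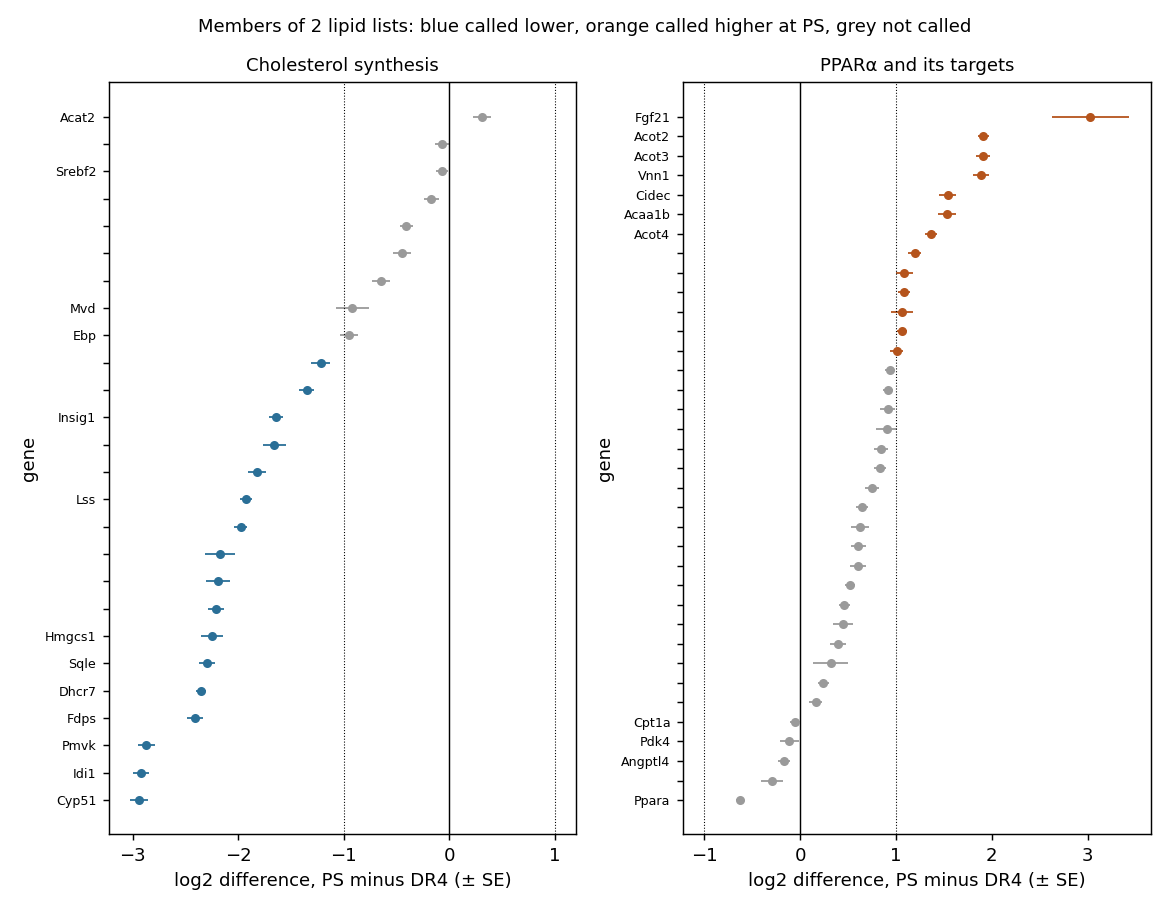
Points give the log2 difference, PS minus DR4, with its SE for every measured member of the cholesterol synthesis list (left) and the PPARα list (right). Dotted lines mark 2-fold, and genes named in the text are labelled. In the sterol panel 17 of 26 genes lie left of -1, with Cyp51 at -2.94, and in the PPARα panel 13 of 36 lie right of 1, with Fgf21 at 3.03.

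Immediate early genes were lower at PS. Of 25 members, 12 were called lower and none higher, with a median of -0.77. The orphan nuclear receptors Nr4a2 (-3.80) and Nr4a1 (-3.29) led, followed by Dusp1 (a MAP kinase phosphatase, -2.48), Gadd45g (-2.34), Myc (-2.22), Atf3 (-1.88) and Fosl2 (-1.83). Fos was lower (-1.66 ± 0.12), whereas Jun (-0.77) and Junb (-0.75) missed the limit and Egr1 (0.69) and Klf10 (0.70) lay on the other side of 0. Under normexp 7 members were called, and Fos and Fosl2 were not among them. A second Fosl2 probe, at -0.77, was not called.

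Nr4a1 read 0.71, 0.70, 0.66 and 0.73 at PS and 4.02, 3.93, 3.96 and 4.06 at DR4. Every DR4 array was above every PS array, a 9.78-fold difference (adjusted p = 5.53e-16). DR1 and DR6 had means of 4.54 and 4.59 and SOL 1.31, so the 3 stream pools were high and PS and SOL low. Dusp1 read 1.17, 1.13, 1.06 and 1.12 against 3.62, 3.53, 3.62 and 3.64, which is 5.59-fold. The list's median against SOL was 0.00 at PS and 0.75 at DR4.
Nr4a1, brightest probe (chr15:101102674-101102733, plus strand): ctcttccgctctccttccatgtgtacataa

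Genes linked to p53 and growth arrest shared this direction in part. Of 25, 9 were called lower at PS and 2 higher. Sesn1 (a stress-induced inhibitor of mTORC1 signalling, -2.64), Trp53inp1 (-2.47), Plk3 (-2.13) and the cell cycle inhibitor Cdkn1a (-1.40) were lower, and Perp (1.03) and Phlda3 (1.09) higher. Gadd45g and Btg2 (-1.76) stand on both this list and the immediate early list. Sesn1 read 2.86, 2.87, 2.85 and 2.74 at PS and 5.56, 5.49, 5.48 and 5.35 at DR4, 6.24-fold apart, and its 3 probes gave -2.64, -2.71 and -2.63. Its mean was 2.24 at SOL, 4.74 at DR1 and 4.67 at DR6. Other well known p53 targets were not called: Mdm2 (-0.38), Bax (0.31) and Ccng1 (0.32 at its brightest probe). A second Ccng1 probe gave 0.92 ± 0.09, just under the 2-fold limit. Trp53 itself differed by -0.35.

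The EGF family held one of the sharpest differences of the comparison. Of 14 members, 4 were called lower at PS: the ligands betacellulin (Btc, -5.16), amphiregulin (Areg) and neuregulin (Nrg1, -1.17) and the receptor Egfr (-1.94). Btc read -1.27, -1.32, -1.40 and -1.36 at PS and 3.83, 3.80, 3.83 and 3.85 at DR4. The 2 sets lie 35.9-fold apart (adjusted p = 9.04e-16), with SOL at -1.58, DR1 at 1.76 and DR6 at 3.13. Areg was not well above background on any PS array and was at least 4.91-fold higher at DR4. Egfr read 4.321, 4.294, 4.203 and 4.230 against 6.241, 6.196, 6.176 and 6.193, and all 6 of its probes were called lower at PS, from -1.45 to -2.51. Erbb3 (-0.22), Tgfa (0.08), Egf (0.20) and Hbegf (-0.25) were not called. Nrg1 was well above background on 1 of 4 PS arrays, and its other probes gave -1.41 and, not called, -0.81. Areg and Nrg1 lost their calls with a normexp background.
Btc, brightest probe (chr5:92433122-92433181, minus strand): ggatccttgtacattttactttacaagaga

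Clock genes differed in both directions. Of 19, 8 were called higher at PS and 4 lower. Higher were Dbp (2.54), Per3, Usp2 (2.20), Per2 (1.78), Nr1d1 (REV-ERBα, 1.29), Gm129 (1.22), Hlf (1.20) and Tef (1.12), of which Dbp, Tef and Hlf are the PAR bZIP output factors. Lower were Nfil3 (a repressor acting at the same sites as Dbp, -2.41), Arntl (-2.05), Cry1 (-1.88) and Rora (-1.24). Per1 (-0.40), Nr1d2 (-0.10) and Clock (-0.65) were not called. Per3 was not well above background at DR4 and was at least 2.69-fold higher at PS. The probes of some clock genes disagreed: a second Per2 probe gave 0.18 and the other Nr1d1 probes 0.41 and 0.17, none of them called. Of the other Tef probes 1 was called (1.68) and the rest, at 0.67 and 0.90, were not. With the mean of all kept probes Per2 and Nr1d1 were not called.

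Dbp read 3.42, 3.40, 3.37 and 3.50 at PS and 0.95, 0.88, 0.81 and 0.89 at DR4. Arntl read -0.11, -0.11, 0.05 and 0.17 at PS and 1.95, 2.04, 2.07 and 2.13 at DR4. The sites did not overlap for either gene, and the order of the sites was reversed between them. Dbp differed 5.81-fold (adjusted p = 5.82e-07) and Arntl 4.14-fold (adjusted p = 0.000297). Their SEs of 0.27 and 0.39 again take in the SOL arrays, whose SD was 0.82 for Dbp and 1.24 for Arntl. The other stream pools did not follow one pattern. At DR6 Dbp was higher (4.07) and Arntl lower (-0.51) than at DR4, but Nfil3 (3.77 at DR6, 3.98 at DR4) and Rora (2.96 and 3.28) were near DR4. DR1 lay between PS and DR4 for Dbp (2.26), Arntl (1.14), Usp2 (0.00) and Nfil3 (3.20). The hour at which the mice of each site died is not in the labels, and its part in these differences was not tested. Under normexp Cry1, Gm129, Nr1d1, Per2, Per3 and Rora lost their calls and 6 clock genes were called, and 5 with normexp and quantile scaling.
Dbp, brightest probe (chr7:45577937-45577996, plus strand): tgccagggcagagtcctgttccttgctcag
Arntl, brightest probe (chr7:113104645-113104704, plus strand): aacccccacataggcatcgatatgatagat

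**Figure D3:**
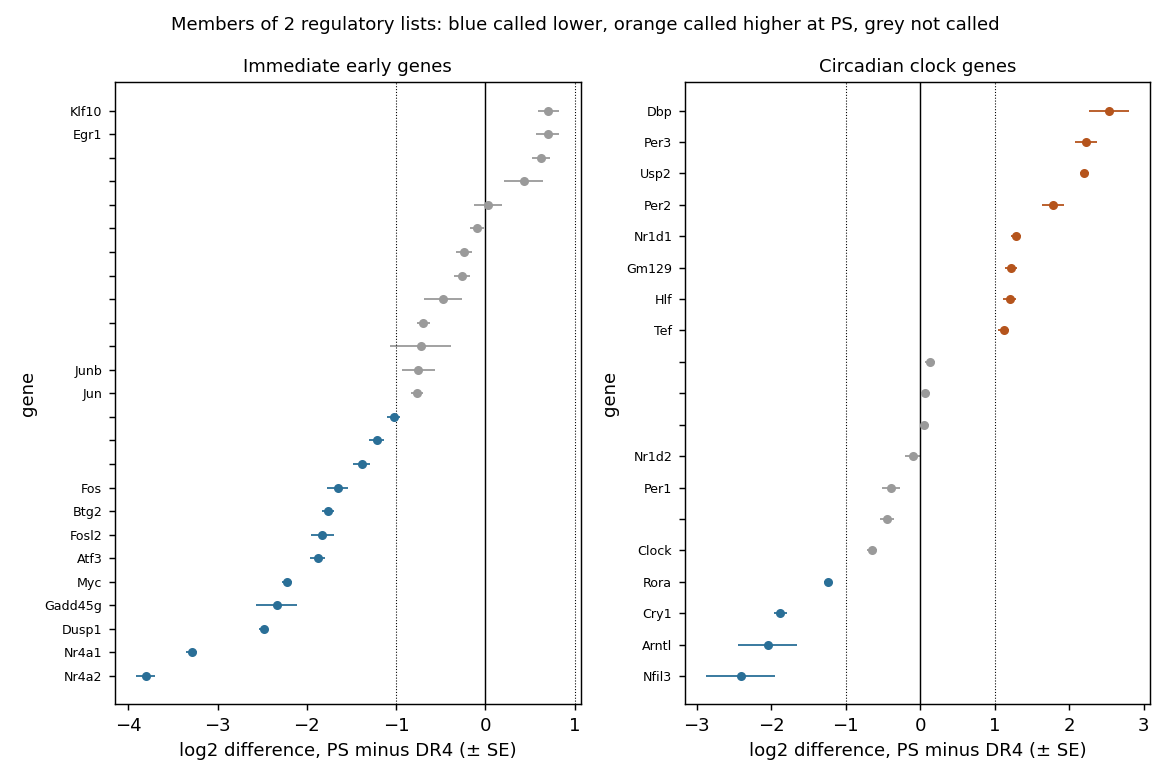
Points give the log2 difference, PS minus DR4, with its SE for every measured immediate early gene (left) and clock gene (right), with dotted lines at 2-fold and labels for genes named in the text. Of the immediate early genes 12 of 25 lie left of -1 and none right of 1, while the clock genes lie on both sides, from Nfil3 at -2.41 to Dbp at 2.54.

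Glucose regulators that respond to fasting and feeding were mostly lower at PS where they were called. Of 22, 4 were called lower and 1 higher. Ppp1r3g (a glycogen-targeting subunit of protein phosphatase 1, -3.62), Snf1lk (salt-inducible kinase, -2.84), G6pc (glucose-6-phosphatase, the last step of glucose release, -2.07) and the coactivator Ppargc1a (-1.10) were lower, and the glucose transporter Slc2a2 (1.07) higher. G6pc read 5.57, 5.57, 5.61 and 5.59 at PS and 7.63, 7.62, 7.62 and 7.73 at DR4, with SOL between them at 6.84. Gys2 (-0.01) and Fbp1 (0.25) were not called. Igfbp1 was saturated at both sites and gives no difference, and Pck1 was not among the genes tested. Of 42 urea cycle and amino acid genes Got1 (-1.82) and Sdsl (-1.04) were called, and Sdsl, like Amacr and Xlkd1 below, not with the array median as scale. Quantile scaling ended the calls of Alas1, Hbb-b1, Perp and Serpinf2.

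The called metal and xenobiotic genes were not of one direction. Of 29 genes of metal handling, 3 were called, all lower at PS: the zinc exporter Slc30a1 (-1.63), metallothionein 1 (Mt1, -1.16) and the iron hormone hepcidin (Hamp1, -1.05). Mt1 read 6.16, 6.07, 6.10 and 6.04 at PS and 7.10, 7.33, 7.30 and 7.27 at DR4. The sites do not overlap, and both lie above the SOL mean of 4.74. Its second probe gave -1.98. Mt2 was saturated at DR4, where it was at least 1.27-fold higher. The Mt1 and Hamp1 calls were lost under normexp, and the Hamp1 call also with the array median as scale. Tfrc (-0.47), Slc39a14 (-0.44) and Slc39a5 (0.85) were not called.

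Of 5 measured genes of the aryl hydrocarbon receptor group, Tiparp (-2.20) and the receptor Ahr itself (-1.73) were called lower at PS. The classical target Cyp1a1 differed by -0.40 ± 0.18 (adjusted p = 0.0662) and Cyp1a2 by 0.45 ± 0.07. Among 30 genes of the CAR and PXR group, Cyp2b10 (-1.75), Cyp3a25 (-1.27) and Cyp2c55 (-1.22) were called lower and Alas1 (1.06) higher, and Cyp3a11 differed by -0.08. Conjugation enzymes leaned to PS, with 6 of 36 called higher, among them the theta-class glutathione transferases Gstt3 (1.62), Gstt2 (1.17) and Gstt1 (1.16), and 2 lower, Sult5a1 (at least 2.38-fold) and Sult1e1 (-1.36). Gstt3 read 7.61, 7.62, 7.50 and 7.55 at PS and 6.02, 5.92, 5.90 and 5.97 at DR4. Ugt2b35 was at least 5.58-fold higher at PS. Of 31 antioxidant and NRF2 genes 3 were called, Gpx3 (plasma glutathione peroxidase, -2.02) and Gpx2 (-1.24) lower and the transporter Abcc4 (1.09, not called without DR4 array 1) higher, while Nqo1 (0.11) and Hmox1 (-0.27) were not.

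Transporters and enzymes of bile acids and retinoids moved singly. Of 23 bile acid genes, Slc10a1 (the bile acid uptake carrier of hepatocytes, 1.82) and Nr0b2 (SHP, 1.40) were called higher at PS and Slc10a2 (-2.59), Cyp7b1 (-1.65) and Amacr (-1.05) lower. Cyp7a1, the rate-limiting enzyme of bile acid synthesis, differed by 0.00 ± 0.08 and Cyp8b1 by -0.32. Of 18 retinoid genes, Retsat (1.62), Aldh1a2 (1.31, well above background on 2 of 4 DR4 arrays) and Dhrs4 (1.23) were called higher and Rdh11 (-1.93) and the retinoic acid hydroxylase Cyp26a1 (-1.25) lower. No gene of oxidative phosphorylation was called among 63, although 23 passed the adjusted p alone, with differences from -0.17 to 0.89.

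Red cell transcripts were higher at PS. Of 13 erythroid markers 6 were called higher and none lower: the globins Hba-a1 (1.77) and Hbb-b1 (1.13), Alas2 (erythroid heme synthesis, 1.81), Slc4a1 (band 3, 1.79), Eraf (α-globin chaperone, 2.33) and Spna1, which was at least 1.32-fold higher. Hba-a1 read 8.53, 8.56, 8.69 and 8.57 at PS and 6.79, 6.82, 6.89 and 6.81 at DR4, 3.40-fold apart, with SOL at 8.34, DR1 at 7.11 and DR6 at 7.16. The summed signal of the 13 markers ran from 786.8 to 892.0 times the 75th percentile on the PS arrays and from 327.3 to 329.4 on the DR4 arrays. Most of this sum is Hba-a1 and Hbb-b1, with means of 8.59 and 8.70 at PS and 6.82 and 7.57 at DR4. Only 3 were called with a normexp background: Eraf and Slc4a1 lost their calls and Spna1 turned to -0.04 with no call.

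Macrophage and lymphoid markers leaned the same way by smaller amounts. Of 22 Kupffer cell and macrophage markers, Clec4f (a Kupffer cell lectin, 1.39), Marco (1.24) and Emr1 (F4/80, 1.02, not called without PS array 2) were called higher and Cd163 (the hemoglobin scavenger receptor, -1.50) lower. Their summed signal was 260.9 to 263.7 at PS and 164.8 to 178.8 at DR4. Of 12 B and plasma cell markers, 2 were called higher at PS, Igj (1.43) and Tnfrsf13c (at least 1.26-fold). Of 21 T and NK cell markers 3 were called higher, among them Klrb1c (at least 1.56-fold) and Cd8a (1.06), and of 9 MHC class II genes 2, C2ta (1.18) and H2-Aa (1.09). The other Cd8a probes (0.15 and 0.56) and a second H2-Aa probe (0.85) were not called, and neither gene was called with the mean of all kept probes. Tnfrsf13c and Klrb1c turned in sign, with no call, under normexp, and Tnfrsf13c was not called without DR4 array 1. The T and NK median of 0.32 became -0.06 under normexp. In the interferon group 6 of 39 were called higher and none lower, led by Mx2 (2.27) and Irf7 (the master regulator of type I interferon, 1.51), whereas Ifit1 (-0.62) and Isg15 (0.17) were not. Mx2 read 0.05, 0.02, -0.04 and 0.03 at PS and -2.20, -2.04, -2.32 and -2.47 at DR4. Oas1a (1.13) and Oas2 (at least 1.96-fold) were also called, but Oas2 turned in sign under normexp, where Mx2 was not called either, and lost its call without PS array 3, PS array 4 or DR4 array 1. With normexp and quantile scaling 3 of the 39 were called. The part of blood and immune cells in other differences was not tested.

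Transcripts of other organs also differed between the pools. All 20 measured exocrine pancreas genes lay higher at PS and 13 were called, with a median of 1.09, and no pancreas gene was called lower. Ela1 (elastase) read 2.21, 2.20, 2.27 and 2.26 at PS and 0.65, 0.59, 0.58 and 0.53 at DR4. Both sites were below the SOL mean of 4.50, and the list's median against SOL was -2.07 at PS and -3.06 at DR4. The summed signal of the 20 genes was 591.0 to 603.1 at PS and 270.3 to 316.0 at DR4. Cpb1 (carboxypeptidase B, 1.64) and Ela2a (1.54) followed. With the test against 2-fold itself 4 pancreas genes were called.

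Some kidney transcripts were higher at PS. Kap (kidney androgen-regulated protein) read -0.77, -0.86, -0.72 and -0.79 at PS and -6.60, -3.99, -6.72 and -6.62 at DR4, where only array 2 was well above background. SOL, DR1 and DR6 had means of -6.16, -6.06 and -6.11, so PS alone was high. Umod (uromodulin, at least 3.09-fold), Cdh16 (Ksp-cadherin, at least 3.08-fold) and Slc34a1 (the renal phosphate carrier, at least 1.79-fold) were also higher at PS and not well above background at DR4. Umod was not high at PS alone, as its DR6 mean of -3.072 lay near the PS mean of -2.915. Ren1 (-0.45) and Slc22a8 (0.16) were not called. Slc22a6 was not called at its brightest probe (-0.57 ± 0.15) but was called higher at PS at a second (1.21 ± 0.20). In linear units the summed signal of the 9 measured markers overlapped, 6.96 to 7.33 at PS and 6.91 to 7.71 at DR4. Most of this sum is Ren1, with means of 2.06 at PS and 2.51 at DR4. Of the 9 markers 7 had a difference above 0. The median was 0.90, and 0.09 to 0.97 across the alternatives. Under normexp Umod, Cdh16 and Slc34a1 lost their calls. The part of carried-over tissue in these differences was not tested.
Kap, brightest probe (chr6:133815600-133815659, minus strand): caaagaagaaagaacgaggaagtgatcctg

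The Reg lectins, secreted proteins of pancreas and injured gut, were higher at PS in 5 of the 10 genes measured with the chitinase-like group, led by Reg3a (3.45) and Pap (2.62), while Chi3l4 (-1.85) was lower. Their summed signal was 63.5 to 66.3 at PS and 28.4 to 29.2 at DR4. Reg3a read -0.40, -0.38, -0.47 and -0.31 at PS and -3.92, -3.61, -4.04 and -3.79 at DR4, with SOL at -4.05 and DR1 at 1.18. Reg3d, well above background on 1 of 4 DR4 arrays, lost its call with a normexp background, where the median of the list went from 0.60 to -0.05.

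The other lists are given by their called members. Of 30 acute phase genes, A2m (α2-macroglobulin, 2.34), Apcs (serum amyloid P, 1.46), Serpina3n (1.17) and Orm3 (1.04) were called higher at PS. A second A2m probe, also called, gave a smaller difference of 1.09 ± 0.28. Socs3 (a feedback inhibitor of cytokine signalling, -1.08) was called lower, while Saa3 (0.52) was not called. Derl3 (2.18) was the call among 27 genes of endoplasmic reticulum stress. Serpinf2 (1.01) was the call among 38 genes of complement and coagulation, and was lost without PS array 2 or DR4 array 3. Hspb1 (1.06) and Hsf2 (-1.14, with -0.87 at a second probe) were those among 22 heat shock genes. Of 31 cell cycle genes Aurkb (a mitotic kinase, 1.25, well above background on 1 of 4 DR4 arrays) was called, and its sign turned with a normexp background. Ckm (1.22), Actn3 (at least 1.92-fold lower) and Car3 were called on the adipose and muscle list of 19. Ggt1 (1.25) and Cftr (-1.64, well above background on 1 of 4 PS arrays) were called among 17 cholangiocyte markers, Xlkd1 (-1.04, with -0.84 at a second probe) among 18 endothelial and Col6a3 (at least 2.30-fold lower) among 32 stellate cell and matrix markers. Of 21 gut and lung markers Sftpc (at least 2.50-fold) was higher at PS, and 5 were lower, led by Agr2 (at least 2.21-fold), Tff1 (at least 2.95-fold) and Krt4 (at least 1.93-fold). Of 14 islet markers Gcg (glucagon, at least 1.07-fold) and Pyy (-1.33) were lower. A second Pyy probe gave 0.33, and the mean of both was not called. None of 10 neutrophil markers was called.

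**Figure D4:**
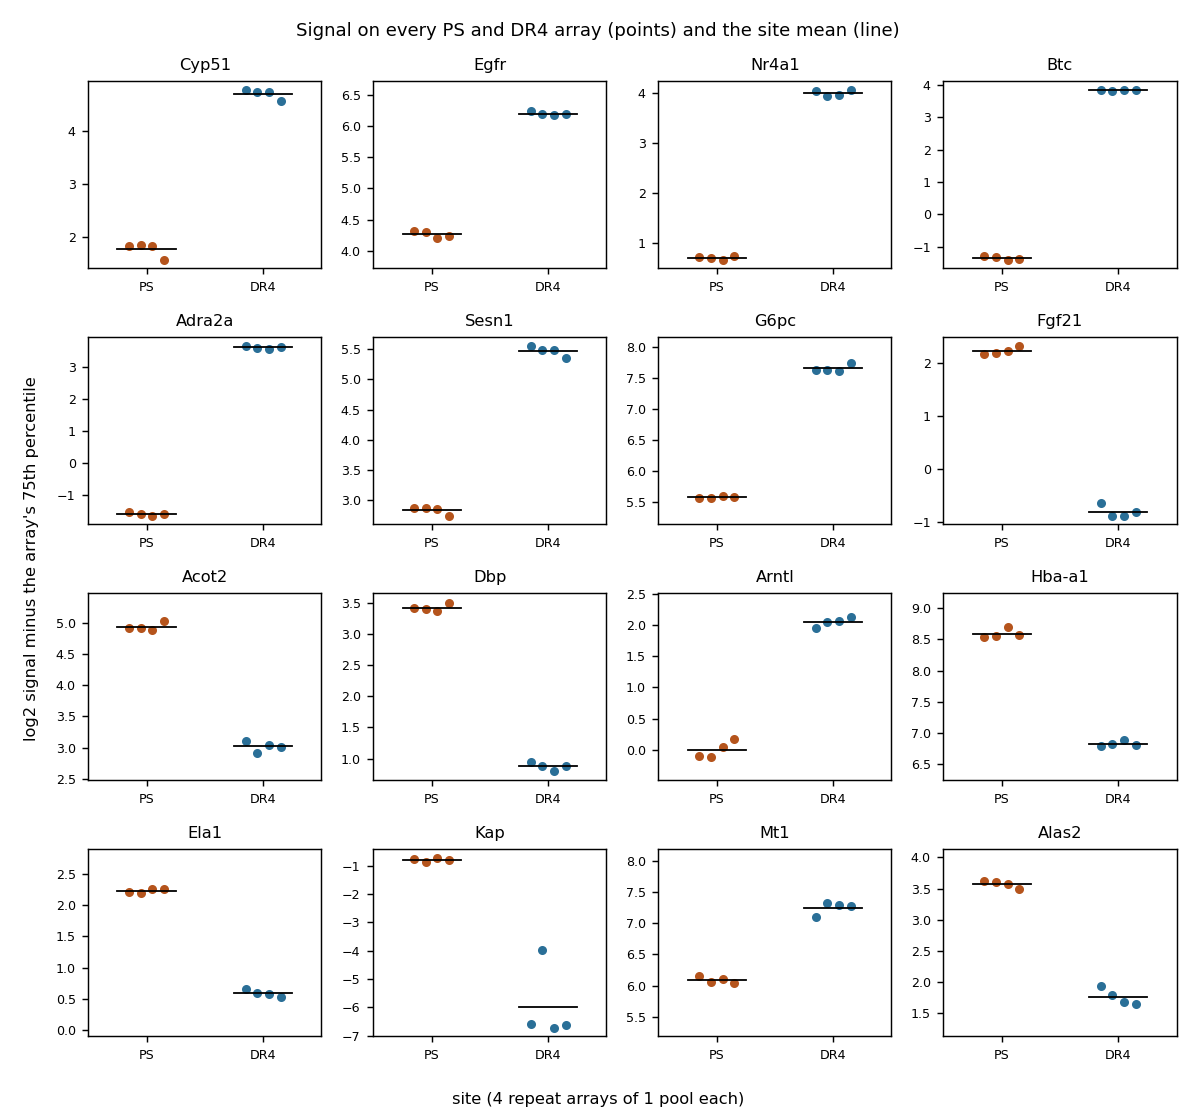
Each panel shows the level of one gene on the 4 PS and the 4 DR4 arrays (points) and the site mean (line), as log2 signal minus the array's 75th percentile. The arrays of the sites do not overlap in any of the 16 panels, which also holds for 60.2% of all genes tested. Kap on DR4 array 2, at -3.99, is the one point far from its group.

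Several of the largest single differences lay outside the groups above. Among genes higher at DR4 were Adra2a (the α2A-adrenergic receptor, -5.22), Npy (neuropeptide Y, -4.84), Cend1 (-3.88), Fst (follistatin, an activin antagonist, -3.70) and Sgk (a serum- and glucocorticoid-induced kinase, -3.66), with Cacnb4 (a calcium channel subunit) at least 17.4-fold and Tnfaip6 at least 6.99-fold higher there. Adra2a read -1.54, -1.59, -1.65 and -1.59 at PS and 3.68, 3.62, 3.57 and 3.64 at DR4. These sets are 37.4-fold apart (adjusted p = 4.35e-19). PS is the lowest of the 5 sites, and DR6, at 4.37, lies above DR4. A probe at chr19:54102182-54102241 and the one that abuts it upstream at chr19:54102122-54102181 (plus strand) gave -5.22 and -5.36, and the third was called lower too. Fst read 0.41, 0.42, 0.41 and 0.40 at PS against 4.11, 4.07, 4.19 and 4.06 at DR4, with SOL at 0.23, DR1 at 1.76 and DR6 at 3.66.
Adra2a, brightest probe: gatctgatttcacgagagaaaaactaaatg
Adra2a, second probe: ggagacttcgtgtttacaacctggtttcta

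Higher at PS were Chgb (chromogranin B, a protein of secretory granules on the islet list, 5.74), Reg3a, Inhbe (the activin E chain of the liver, 3.36), Retnla (a resistin-like protein of alternatively activated macrophages, 3.28, well above background on 2 of 4 DR4 arrays) and Krt20 (2.99, on 1 of 4), with Trim12 at least 20.95-fold, Abcd2 at least 9.09-fold and Dnase1 at least 2.97-fold higher there. Chgb read 1.48, 1.45, 1.41 and 1.40 at PS and -4.37, -4.31, -4.33 and -4.19 at DR4, where 1 of 4 arrays was well above background. SOL had a mean of -4.34 and DR1 one of -0.27. Inhbe read 2.78, 2.73, 2.65 and 2.73 at PS and -0.58, -0.57, -0.75 and -0.68 at DR4, the lowest level of the 5 sites. Abcd2, Retnla, Dnase1 and Krt20 lost their calls under normexp, and Tnfaip6 among the genes higher at DR4.

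Where 2 probes overlap, they can be read as a repeat measurement. The Retnla probes at chr16:48763960-48764019 and chr16:48763950-48764009 (plus strand) share 50 bases, of which the 20 that fall in both printed stretches are in capitals, and they gave 3.28 and 3.36. Trim12 belongs to a family of close paralogs, so its signal may not be its own. Its probes at chr7:104173806-104173865 and chr7:104178135-104178194 (minus strand) gave 5.79 and 3.66.
Retnla, brightest probe: GATGAATCTAACAAAAACTGcagtctcaat
Retnla, second probe: gctttgatatGATGAATCTAACAAAAACTG
Trim12, brightest probe: catagctaagggctgtcacttacatcaggt
Trim12, second probe: aagatgtgcagaatgttcggtcagagttta

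Over all called genes, 346 had more than 1 kept probe. In 308 of these every probe had the same sign, and in 189 every probe was called. Car3 (carbonic anhydrase 3, abundant in muscle, fat and liver) had probes that went opposite ways. Its bright probe at chr3:14848525-14848584 was lower at PS by a difference of -2.44 ± 0.08, reading -0.08, -0.09, 0.01 and -0.21 at PS and 2.46, 2.40, 2.40 and 2.15 at DR4. A dim probe at chr3:14841475-14841534 (plus strand, as the first) gave 1.16 ± 0.36. The mean of both probes was not called.
Car3, brightest probe: acatgcaaccgcagtgccttttgacatgat
Car3, second probe: ggctttctgaccaccgagagacaacgtttt

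Sex-biased liver genes, all from male pools, differed between the sites in part. The median difference was -0.395 over the male-biased genes and -0.0705 over the female-biased genes. Of 18 male-biased genes 4 were called lower at PS and none higher: Elovl3 (-2.72), Egfr, Cyp7b1 and Mup3 (-1.15), whose call was lost without PS array 4. Elovl3 read 2.002, 2.066, 2.002 and 1.975 at PS and 4.745, 4.662, 4.743 and 4.757 at DR4, with SOL at 1.91, DR1 at 4.85 and DR6 at 5.41. Cyp4a12 (-0.66) and Hao3 (-0.46) were not called. Of 22 female-biased genes Abcd2, Acot3 and Acot4 (1.37) were called higher and Sult1e1 lower, and Acot3 and Acot4 are also PPARα targets.

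Of the 24 genes called in opposite directions against SOL, the rule for named genes picked 6. Adra2a was 1.42 units below SOL at PS (-1.42) and 3.81 above at DR4. Ppp1r3g was at -1.27 and 2.35, and Dusp8 (a phosphatase of stress kinases, well above background on 2 of 4 PS arrays) at -1.53 and 1.57. Mlf1ip and Serpinb3b were not well above background on any PS array, nor Trim12 on any DR4 array, so their differences from SOL on that side are not measured. Between the sites Mlf1ip was at least 4.66-fold and Serpinb3b at least 2.03-fold higher at DR4. These values share the SOL arrays.

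**Figure D5:**
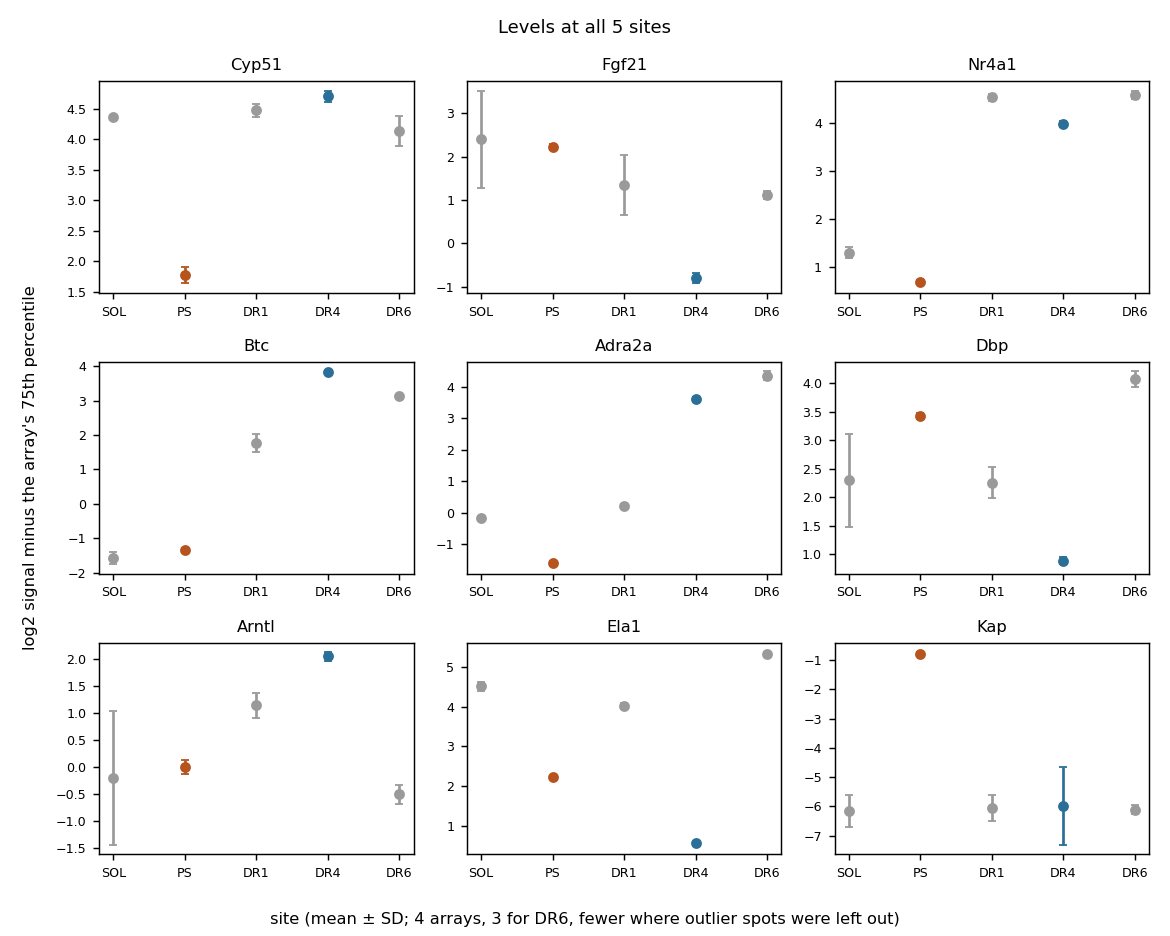
Points give the mean level with its SD at each of the 5 sites (4 arrays, 3 for DR6, but for Cyp51 3 at SOL and 2 at DR6 after outlier spots were left out) for 9 genes, as log2 signal minus the array's 75th percentile, with PS in orange and DR4 in blue. PS stands apart for Cyp51 (1.77) and Kap (-0.78), DR4 is lowest for Fgf21 (-0.80), Dbp (0.88) and Ela1 (0.59), and Nr4a1 and Btc are high at the 3 stream sites.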

How the data were processed

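Liver RNA pools of 5 sites were measured on 19 one-colour Agilent mouse arrays. The submitters' processing notes name Agilent Feature Extraction 9.5.3.1, and the deposited files hold each spot's linear processed intensity, with background subtracted per the file headers, and flags of 0 or 1 (other values). The deposited table holds the same intensity to 3 significant digits and was used as an alternative only. Probe names and positions come from the mm8 design in the files. Probe sequences come from the older design used for the DR1 slide. A promoter or protein table was not used here.

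Of 43379 gene spots (41174 probes), outlier spots were set missing, the log2 processed intensity was centred on each array's 75th percentile, and 23457 probes were kept, those flagged above background on 3 or more arrays of some site. The brightest kept probe stands for a gene. This left 16343 genes, 11834 with a symbol. Precision is limited by the number of arrays, and the 75th percentile of signal ran from 159.2 to 204.5 on the 8 arrays. All 19 arrays entered 1 limma fit (version 3.58.1, R 4.3.3) of site means, two-sided, with Benjamini-Hochberg adjustment over all genes. Each adjusted p and SE comes from this fit, and values of single probes from the same fit over all kept probes. Where the lower site had no array well above background, the gene is given as "at least N-fold", the brighter site's mean over the higher of the lowest signal well above background and the probe's own. On simulated arrays for this comparison (16003 genes), 92 of 100 genes changed 3-fold were called, 1 of 100 changed 1.5-fold, and 1 unchanged gene. Among the genes changed 1.5-fold, 1 was fitted with the wrong sign. The simulated spread was that between repeat arrays only, so these counts do not cover differences between pools or slides.

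The 42 lists and the genes named were chosen with earlier results of these data known. The rule named the 12 largest rises and falls well above background, up to 4 called members of each list, a fixed set that includes Mt1, Nr4a1 and Arntl, and 6 called oppositely against SOL. Other list members were named after their values were seen, and some genes the rule picks are not reported here. Lists are described by counts and medians, with no set test, and share members. Alternatives covered scaling, background, filter, probe choice, arrays fitted, a block, the deposited table, outlier spots, a test against 2-fold and each array left out.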

Additional observations from a re-analysis of the deposited data

Results flagged for a closer look

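Among the named genes, 31 of 418 groups of 4 arrays (7.42%) held 1 array far from the other 3, its gap over the group's range being above Dixon's 95% critical value. Chance gives about 1 in 20 groups. PS array 4 was that array in 13 groups and DR4 array 2 in 6. Values are log2 signal minus the array's 75th percentile. PS array 4 lay below the other arrays of its site for Cidec (6.03), Cyp51 (1.57), Cyp7b1 (5.80), Eraf (-1.73), Mdm2 (1.75), Mup3 (-2.58), Sesn1 (2.74), Slc30a1 (2.19), Srebf1 (2.69) and Vnn1 (6.24) and above the other arrays of its site for Acaa1b (8.03), Cyp3a11 (8.29) and Sqle (1.33). PS array 3 lay below the other arrays of its site for Acot4 (3.02) and Clec4f (2.30). PS array 1 lay below the other arrays of its site for Dusp8 (-4.14) and above the other arrays of its site for Cacnb4 (-5.62). PS array 2 lay below the other arrays of its site for Mlf1ip (-6.21). DR4 array 2 lay below the other arrays of its site for Elovl3 (4.66) and above the other arrays of its site for Cftr (-1.997), Kap (-3.99), Nr1d1 (-1.27), Slc34a1 (-4.99) and Trim12 (-5.29). DR4 array 4 lay below the other arrays of its site for Rdh11 (4.06) and above the other arrays of its site for Clock (3.00), G6pc (7.73) and Got1 (7.79). DR4 array 1 lay above the other arrays of its site for Cyp26a1 (0.24) and Snf1lk (2.05). DR4 array 3 lay above the other arrays of its site for Gys2 (6.75). The other DR4 arrays read -6.72 to -6.60 for Kap, and the other PS arrays -4.96 to -4.91 for Mlf1ip. The cause was not tested.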

How the results depend on the processing

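With a normexp background 520 genes were called (362 higher at PS, 158 lower), with 7 immediate early, 6 clock, 2 EGF family, 3 erythroid and 1 kidney gene, and 38 called against SOL at PS only, 324 at DR4 only, 28 at both and 130 at neither. Aurkb (-0.0332), Klrb1c (-0.00822), Oas2 (-0.077), Spna1 (-0.0423) and Tnfrsf13c (-0.0644) turned in sign. With normexp and quantile scaling 408 were called (160 higher, 248 lower), with 8 PPARα, 3 interferon, 5 clock, 2 EGF family, 2 erythroid, 6 pancreas and 1 kidney gene, and 42, 246, 27 and 93 in the SOL patterns in the same order. Of the 162 called genes named above, 71 lost their call there. Among these, Alas1, Dusp8, Emr1, H2-Aa, Hbb-b1, Hlf, Hspb1, Serpinf2 and Tef had kept it under normexp alone. Requiring signal on every PS and DR4 array, which leaves fewer genes to test, 997 were called (505 higher, 492 lower at PS). Among these were 2 EGF family and 0 kidney genes, and 109 were called against SOL at PS only. Tested against 2-fold itself, which is stricter by construction, 551 were called (256 higher, 295 lower), with 7 PPARα, 2 interferon, 7 clock and 4 pancreas genes, and 63, 306, 24 and 158 in the SOL patterns. In this test 60 of the named genes lost their call. Apcs, Apob, Arntl, Cd163, Marco, Nfil3, Nr0b2, Serpina3n and Slc2a2 lost it in no other setting. The cause of the other changes was not tested. Leaving out 1 array at a time gave 1441 to 1507 calls (694 to 739 higher, 725 to 792 lower), 12 to 13 PPARα, 5 to 6 interferon and 13 to 14 pancreas genes, and SOL patterns of 196 to 211, 745 to 775, 109 to 122 and 363 to 410. Sterol genes (17), immediate early (12), p53-linked (9), clock (12), EGF family (4), erythroid (6) and kidney genes (4) kept their counts there. With the array number as a replicate block on the 8 arrays 1473 were called (709 higher, 764 lower), against 1476 for the same 8 arrays without it, and no named gene lost its call under either. The labels state no pairing by number, and the deviations of same-numbered arrays from their site means correlated at 0.105, 0.0327, 0.0876 and 0.195. Dim probes limit the kidney, EGF and islet results.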
